A study of Arabidopsis thaliana with 12 samples.

Results

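Transcripts of 2 membrane transporters, AT2G32040 and AT3G25410, lay far apart in direction between the Arabidopsis thaliana mutant psah2 and its wild type. AT2G32040 encodes a plastid folate transporter, and AT3G25410 encodes a member of the bile acid:sodium symporter family. Both genes were chosen from earlier results of these arrays because one was lower and the other higher in psah2, so that their changes between the groups are described here without a test. The probes were those annotated with exactly 1 gene. Each of the 2 genes had 1 such probe, and neither appeared among the genes of any probe annotated with several. They are 2 of the 689 genes with a 1-gene probe, and 2 of the 522 such genes whose probes carried enough values above 0 to be compared.

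Folates are carriers of one-carbon units, which plants use to make nucleotides, methionine and, in leaves, to run photorespiration. Their synthesis is split between cytosol, plastid and mitochondrion, so folates and their precursors have to cross organelle membranes. AT2G32040 belongs to the folate-biopterin transporter family, whose plastid member sits in the envelope. The bile acid:sodium symporter family is named after animal carriers that take up bile acids together with sodium. In Arabidopsis its plastid members carry small organic acids, among them BASS2, which moves pyruvate, and BASS6, which moves glycolate. AT3G25410 is the member commonly called BASS3.

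The 6 psah2 samples were described by the submitters as plants without the photosystem I protein PSI-H2, a small subunit of the complex that hands electrons from plastocyanin to ferredoxin. The 6 WT samples carried no stated mutation, and both groups were of the Columbia 0 ecotype. Total RNA was hybridised to single-colour arrays of 3439 probes, with 1 array per sample. The sources used here give no allele of psah2 and no tissue, age or growth condition. They also leave unsaid whether a group's samples are separate plants, so a p-value covers only the variation among these arrays and that variation may be technical. Consecutive replicates of a group resembled each other more than other replicates did: their deviations from the group mean correlated across probes with r of at least 0.00373, against at most -0.164 for other pairs of the same group. If such neighbours are repeats of 1 sample, which the labels do not say, each group holds 3 samples and not 6.

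The psah2 arrays had a lower median intensity and more probes at 0, but not every probe was dimmer on them. The median deposited intensity of an array, in arbitrary units, was 0.0946 ± 0.0037 in psah2 and 0.339 ± 0.033 in WT (SD, n = 6 each). Between 20.1% and 22.5% of the probes were listed at 0 on psah2 arrays, and between 13.0% and 13.7% on WT arrays. For this reason each transporter is given on 3 scales, namely the deposited intensity, its position among the probes of its own array, and the log2 intensity after quantile normalization, which gives every array the same distribution of values. Of the genes listed as markers of green tissue, 3 of 6 had a probe, namely LHCB1.5 (AT2G34420), PSAN (AT5G64040) and PRK (AT1G32060), and all 3 were detected on all 12 arrays and were higher in psah2, by 1.80-fold, 2.25-fold and 4.38-fold after normalization (limma, adjusted p = 0.000142, 4e-06 and 2.67e-08), where 25.2% of all compared probes were called higher. With each array centred on its median the same rises came to 7.79-fold, 7.34-fold and 11.7-fold. As deposited they came to 2.90-fold, 2.73-fold and 4.37-fold. None of 3 root markers and none of 2 seed markers had a 1-gene probe, so other tissues could not be looked for. The part of tissue make-up in the changes below was not tested, and in whole-sample RNA fewer cells of a type cannot be told apart from less RNA per cell.

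The folate transporter AT2G32040 was dim and uneven in psah2 and brighter on every WT array. Its deposited intensity ran from 0.00767 over a median of 0.0457 to 0.169 on the psah2 arrays, and from 0.656 over a median of 0.968 to 1.01 on the WT arrays. The groups did not overlap, as was the case with psah2 lower for 66.2% of all compared probes, and the lowest WT array was still 3.88-fold above the highest psah2 array. As a mean the intensity was 0.0692 ± 0.0655 in psah2 and 0.884 ± 0.153 in WT (SD, n = 6 each), so that the WT mean was 12.8 times the psah2 mean.

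The 6 psah2 arrays differed widely among themselves at this probe. Replicates 1 and 2 were brightest, at 0.169 and 0.128, replicate 5 stood at 0.0632, replicates 4 and 6 at 0.0281 and 0.0191, and replicate 3 was lowest at 0.00767. The highest array was 22.1 times the lowest in psah2 and 1.54 times the lowest in WT. On the log2 scale the deposited SD was 1.71 in psah2 and 0.27 in WT. A smaller SD was found in psah2 for 95.9% of the 2142 compared probes above 0 on all psah2 arrays. In WT the same held for 65.5% of the 2621 compared probes above 0 on all WT arrays. Dim probes that fell to 0 on any psah2 array were left out of these shares, which say nothing of them. Of the 2142 probes, 512 others had a median psah2 intensity within 2-fold of that of AT2G32040. Their median SD was 0.84, and 88.7% had a smaller SD than AT2G32040. Its size of change is therefore the less exact of the 2, while no psah2 array was at 0.

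The symporter family gene AT3G25410 was brighter in psah2 although the psah2 arrays had a lower median. Its deposited intensity ran from 0.519 over a median of 0.569 to 0.790 in psah2, and from 0.153 over a median of 0.213 to 0.324 in WT. All 6 psah2 arrays lay above all 6 WT arrays, as they did for 7.68% of all compared probes, with the lowest psah2 array 1.61 times the highest WT array. The mean was 0.619 ± 0.121 in psah2 and 0.229 ± 0.070 in WT (SD, n = 6 each), a ratio of 2.70.

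The spread of AT3G25410 lay in the other group. The highest array was 1.52 times the lowest in psah2 and 2.12 times the lowest in WT. Consecutive replicates lay close together in WT, and less regularly in psah2. In psah2 replicates 1 and 2 were at 0.747 and 0.790. Replicates 3 and 4 were at 0.603 and 0.519, and replicates 5 and 6 at 0.521 and 0.534. Replicate 4 thus lay nearer to replicate 5 than to replicate 3. In WT replicates 1 and 2 were at 0.304 and 0.324, replicates 3 and 4 at 0.201 and 0.224, and replicates 5 and 6 at 0.153 and 0.168. The medians of the WT arrays themselves ran from 0.304 to 0.379. Divided by the median of its own array, probes at 0 included, AT3G25410 was at 5.32 to 8.26 in psah2 and at 0.503 to 0.855 in WT.

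**Figure D1:**
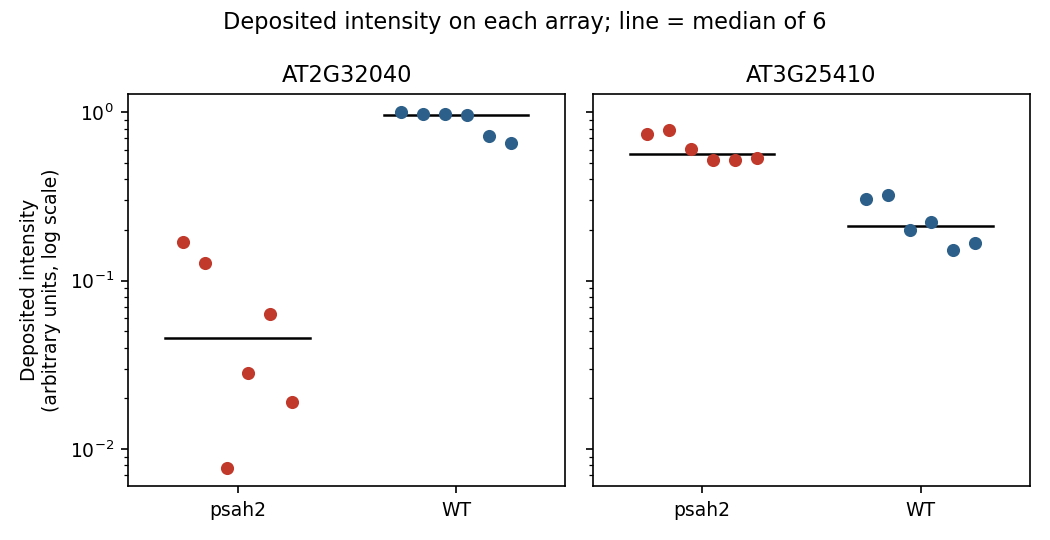
Deposited intensity (arbitrary units, log scale) of AT2G32040 and AT3G25410 on each of the 6 psah2 and 6 WT arrays, with points in order of replicate number and a line at the median of the group. AT2G32040 is scattered between 0.00767 and 0.169 in psah2 and between 0.656 and 1.01 in WT, and AT3G25410 lies higher on every psah2 array than on any WT array.

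In position within their arrays the transporters moved in opposite directions. AT2G32040 was brighter than 24.9% to 64.2% of the probes of its array in psah2, with a median of 35.8%, and than 77.8% to 85.5% in WT, with a median of 82.8%. AT3G25410 was at 84.7% to 89.9% in psah2, with a median of 86.6%, and at 28.1% to 44.4% in WT, with a median of 34.0%. These positions do not depend on how an array is scaled, and the groups did not overlap for either gene, as held with psah2 lower for 20.5% and with psah2 higher for 22.5% of the compared probes. They do depend on the share of probes at 0, which was 20.1% to 22.5% on psah2 arrays and 13.0% to 13.7% on WT arrays. On psah2 replicates 3 and 6 AT2G32040 stood at 24.9% and 25.7%, little above the probes at 0. The widest range was again that of AT2G32040 in psah2.

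**Figure D2:**
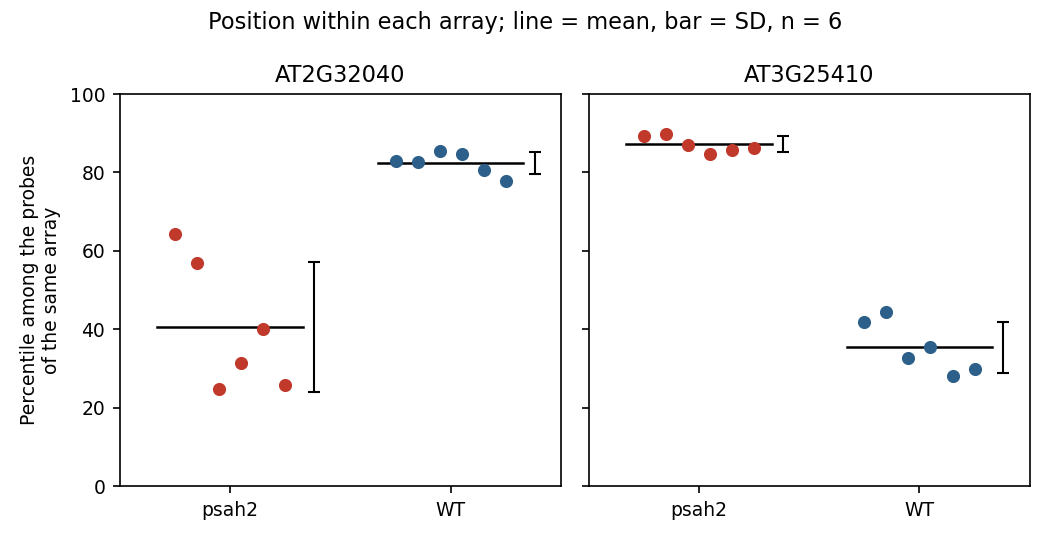
Percentile of AT2G32040 and of AT3G25410 among all 3439 probes of the same array, for 6 psah2 and 6 WT arrays, with the mean as a line and the SD as a bar. AT2G32040 lies between 24.9 and 64.2 in psah2 and between 77.8 and 85.5 in WT, and AT3G25410 between 84.7 and 89.9 in psah2 and between 28.1 and 44.4 in WT.

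After quantile normalization AT2G32040 was at a log2 intensity of -3.55 ± 1.43 in psah2 and -0.63 ± 0.22 in WT (SD, n = 6 each). Its log2 change was -2.92 (SE 0.54), or 7.57-fold lower in psah2, and with consecutive replicates averaged, 3 against 3, the SE was 0.67. AT3G25410 was at -0.34 ± 0.22 in psah2 and -3.11 ± 0.38 in WT, which gave a log2 change of 2.78 (SE 0.18, or 0.27 with consecutive replicates averaged), or 6.86-fold higher in psah2. On this scale the sizes of both changes differed by less than the SE of AT2G32040.

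As these changes chose the genes, nothing is read from the following counts, which only place them. Over all 2643 compared probes 25.2% were called higher and 36.2% lower in psah2 (limma, adjusted p below 0.05), and the normalized values above 0 did not overlap between the groups for 18.8% with psah2 higher and for 25.4% with psah2 lower. AT2G32040 had the 7th lowest and AT3G25410 the 6th highest change of the 523 compared 1-gene probes, and over all compared probes 18 had a lower change than AT2G32040 and 38 a higher one than AT3G25410. Among probes of like brightness in WT, within 2-fold of the gene's median WT intensity, 8 of 1015 had a lower change than AT2G32040 and 14 of 1151 a higher change than AT3G25410. The median log2 change of those 1015 probes was -0.56 and that of the 1151 probes was 0.03.

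The scaling moved the sizes and not the directions. In the values as deposited the log2 change was -4.37 for AT2G32040 and 1.47 for AT3G25410, against a median of -1.64 over all compared probes. With each array centred on its median they were -2.94 and 2.90, against a median of -0.21, and with cyclic loess -2.57 and 2.88, against a median of -0.12. The 2 genes lay on opposite sides of 0 on all 4 scales. Relative to the median of all probes AT2G32040 was at -2.66 after quantile normalization and -2.73 as deposited, and AT3G25410 was at 3.04 and 3.11.

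**Figure D3:**
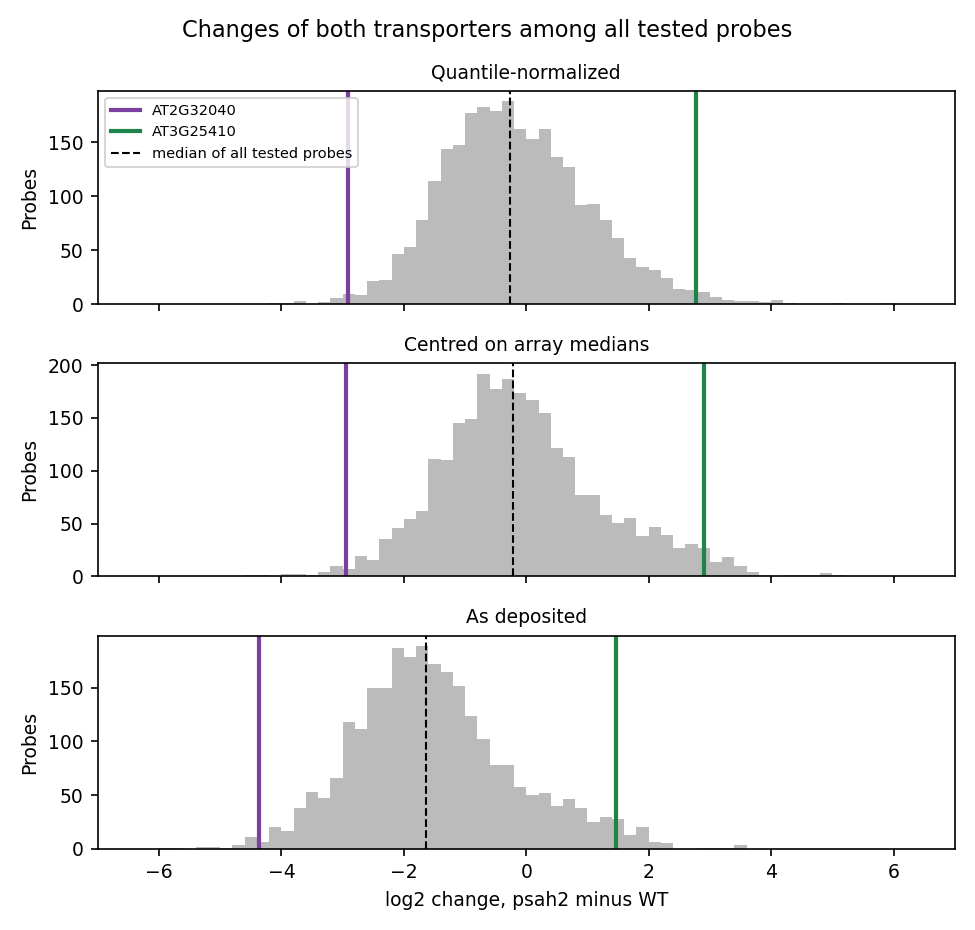
Histograms of the log2 change (psah2 minus WT) of all 2643 compared probes after quantile normalization, with arrays centred on their medians and as deposited, with AT2G32040 in purple, AT3G25410 in green and the median of all compared probes as a dashed line. The whole distribution lies lower as deposited, with a median of -1.64, and both genes stay in its opposite tails at -4.37 and 1.47.

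The ratio of both probes within an array is free of any factor that scales the whole array. Since a probe's brightness is not a molar amount, the ratio has meaning only as a difference between arrays. The log2 ratio of AT2G32040 over AT3G25410 ran from -6.30 to -2.14 in psah2, with a mean of -3.85 ± 1.55, and from 1.60 to 2.27 in WT, with a mean of 1.98 ± 0.27 (SD, n = 6 each). The change of this ratio was -5.84 with an SE of 0.64, and every psah2 array lay below every WT array. This separation follows from those of the 2 genes, which were chosen for opposite directions, and is no further result. Replicate 3 of psah2 gave the lowest ratio, and without it the change was -5.35.

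Other members of both families, and other genes of the same pathways, were almost out of reach of these probes. None of the 8 other folate-biopterin transporter genes and none of the 5 other bile acid:sodium symporter genes had a 1-gene probe. The same held for 42 genes of folate synthesis, salvage and one-carbon metabolism, such as the folate synthesis enzymes ADCS and DHFS and the carrier FOLT1, and for 13 components of the plastid protein import machinery. Of 45 listed carriers and channels of plastid membranes, 2 had a 1-gene probe, and neither had enough values above 0 to be tested. AT5G17630, the plastid translocator that exchanges xylulose 5-phosphate for phosphate, was at 0 on 4 psah2 arrays, with replicates 1 and 5 at 0.0244 and 0.0681, and at 0.0309 to 0.0892 on the 6 WT arrays, so that the groups overlapped. AT1G32080, PLGG1, the plastid carrier of glycolate and glycerate in photorespiration, was listed at 0 on all 12 arrays, so its probe gave no level in either group. Among probes annotated with several genes, 1 held a gene of the folate metabolism list and 2 held a gene of the list of plastid carriers and channels. None of these had all its genes within its list, and their values were not examined. Whether the 2 changes extend to their pathways was therefore not tested.

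The folate-biopterin transporter family was also represented by 3 probes annotated with several genes, all of them members of the family other than AT2G32040. This set was put together after the annotation had been seen, the probes share genes with each other, and no value of theirs can be given to 1 gene. After normalization 1 of the 3 was lower in psah2, none was higher and 2 did not pass the test, where 36.2% of all compared probes were lower. The probe with 3 family genes had deposited intensities from 0 over a median of 0.0261 to 0.0941 in psah2, with replicate 6 at 0, and from 0.234 over a median of 0.262 to 0.302 in WT. Its log2 change was -0.96 (SE 0.33, limma, adjusted p = 0.0241) with the array at 0 left out of the fit, and it no longer passed when replicate number entered the fit as a block (adjusted p = 0.0651) or under cyclic loess (adjusted p = 0.0873). As deposited its log2 change was -2.91, or 7.52-fold lower, against 1.95-fold after normalization.

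The brighter probe with 2 family genes ran from 0.150 over a median of 0.224 to 0.337 in psah2, and from 0.366 over a median of 0.481 to 0.561 in WT. After normalization its log2 change was 0.27 (SE 0.17, adjusted p = 0.191), but as deposited it was -1.01 and passed the test as lower (adjusted p = 0.000582). The dimmer probe with 2 family genes ran from 0.0241 over a median of 0.0860 to 0.112 in psah2, and from 0.270 over a median of 0.314 to 0.349 in WT, with a normalized log2 change of -0.56 (SE 0.32, adjusted p = 0.148). As deposited the psah2 values of all 3 probes lay below all WT values, as they did for 66.2% of all compared probes. The difference between these probes and AT2G32040 was not tested.

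**Figure D4:**
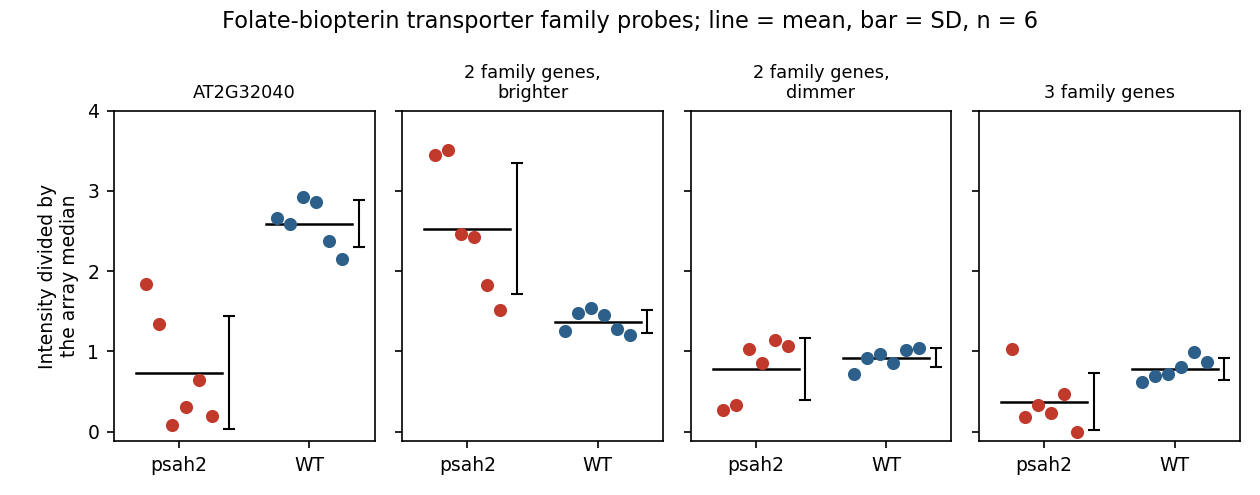
Intensity divided by the median of the same array for AT2G32040 and for 3 probes annotated with 2 or 3 other genes of the folate-biopterin transporter family, on 6 psah2 and 6 WT arrays, with the mean as a line and the SD as a bar. AT2G32040 averages 0.734 in psah2 and 2.59 in WT, while the brighter probe with 2 genes averages 2.53 in psah2 and 1.37 in WT. The median used here counts probes at 0, which were more frequent on psah2 arrays. After quantile normalization the log2 change of the brighter probe was 0.27 (limma, adjusted p = 0.191).

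The genes whose course over the 12 arrays was most like that of each transporter were sought among the 420 genes with a 1-gene probe above 0 on all arrays. Likeness was the root mean square difference between normalized log2 profiles, each centred on its own mean. The profiles share arrays and normalization, and they hold the change between the groups for which both transporters were chosen. Genes with a like change between psah2 and WT therefore lie near by construction, and the lists are given as a description only. For AT2G32040 the 5 nearest were AT1G03810 (0.72), AT1G31220 (0.78), AT4G26770 (0.93), AT3G09080 (0.96) and AT2G27290 (0.97), against a median of 1.68 over the genes compared. The 3 nearest were dim in psah2, as AT2G32040 was. AT1G03810 averaged 0.0283 ± 0.0180 in psah2 and 0.532 ± 0.018 in WT, AT1G31220 averaged 0.0337 ± 0.0170 in psah2 and 0.386 ± 0.064 in WT, and AT4G26770 averaged 0.0182 ± 0.0176 in psah2 and 0.250 ± 0.056 in WT (SD, n = 6 each). AT2G27290 had a like change at a far higher brightness, at 6.84 ± 0.22 in psah2 and 39.6 ± 2.4 in WT.

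For AT3G25410 the nearest profiles were closer. The distance also holds each gene's spread within a group, and the normalized SD in psah2 was 0.22 for AT3G25410 and 1.43 for AT2G32040. They were those of AT1G24040 (0.28), AT2G04700 (0.31), AT3G47650 (0.33), AT3G02030 (0.39) and AT3G09050 (0.44), against a median of 1.62. AT2G04700, which encodes the catalytic part of ferredoxin-thioredoxin reductase, was at 0.442 ± 0.022 in psah2 and 0.180 ± 0.021 in WT. AT1G24040 was at 1.35 ± 0.37 in psah2 and 0.487 ± 0.149 in WT, and AT3G47650, a DnaJ-type zinc finger protein, at 3.87 ± 0.51 in psah2 and 0.926 ± 0.170 in WT (SD, n = 6 each). The fifth and the next gene differed by under 0.01 in likeness for both transporters, so the end of each list is arbitrary.

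**Figure D5:**
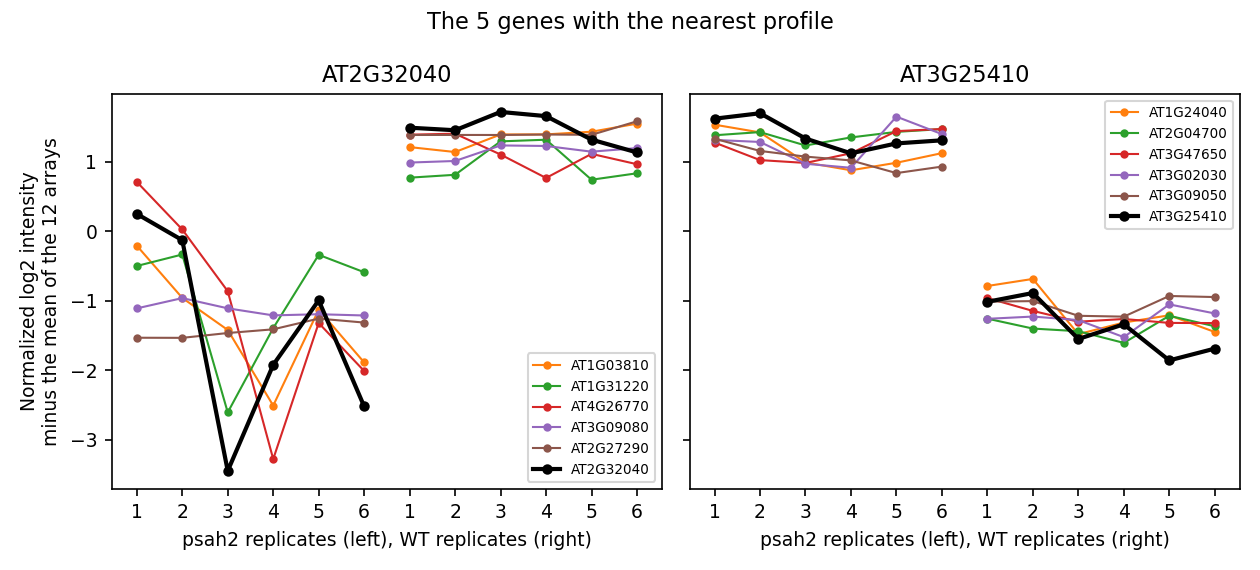
Normalized log2 intensity minus the mean of the 12 arrays for AT2G32040 and AT3G25410 (black) and for the 5 genes with the nearest profile to each (colours), with psah2 replicates on the left and WT replicates on the right. Around AT2G32040 the dim genes scatter over several log2 units among psah2 arrays, while the profiles around AT3G25410 run close together at root mean square differences of 0.28 to 0.44.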

How the data were processed

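The authors deposited 1 table of intensities on a linear scale, with a column for each of 12 arrays. Its scale ends at 100. Background correction, scaling and scanner are not given in the sources used here. Every column belonged to a sample, and groups and replicate numbers came from the sample titles. Probes were named from the platform annotation and RefSeq genes of assembly TAIR10.1. Of 692 probes with 1 gene, 690 matched a locus, while 870 had several genes and 1877 none listed. Coordinates are not printed, as no genome build is named for the probes, and no sequences were used.

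Values were log2-transformed with those at 0 left missing and quantile-normalized, and probes with at least 4 values in each group (2643 of 3439) were fitted in R 4.3.3 with limma 3.58.1 (lmFit, eBayes), without covariates, 2-sided, with Benjamini-Hochberg adjustment over all fitted probes and a threshold of 0.05. The fit was tested on simulated data. The number of arrays limits the precision. Alternatives were other normalizations, filters, a floor, averaged consecutive replicates, the replicate number as a block, and each array left out. Centring on the median used the values above 0 only, whereas the medians of deposited intensities counted those at 0.

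The members and gene lists were chosen with earlier results of these data known. The rule named both transporters, every tested gene of the lists, and the 5 nearest profiles of each transporter. AT5G17630 and AT1G32080, the listed transporters with an untested probe, were named after their values were seen. A search of gene symbols and synonyms for transporter words found no 1-gene probe. It thus missed AT2G32040 and AT3G25410 themselves, as well as AT5G17630 and AT1G32080, all of them transporters with such a probe. The search therefore cannot tell whether further transporters had a 1-gene probe. Pairing by replicate number was checked by correlating deviations from group means. Same-numbered psah2 and WT arrays had r from 0.0556 to 0.171, against at most 0.0864 for other numbers. The rule for pairs asked for r above 0.1 at every number, which 4 of 6 met, so the block stayed an alternative although same-numbered arrays resembled each other.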

Additional observations from a re-analysis of the deposited data

How the results depend on the processing

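AT2G32040 remained lower and AT3G25410 higher in psah2 under all 20 alternatives, with log2 changes from -4.37 to -2.47 and from 1.47 to 3.13. Both genes were chosen for these directions and their groups did not overlap, so leaving out 1 array could hardly turn them. The filters left the normalized values as they were and gave the same changes by construction. The values as deposited moved both changes most, to -4.37 and 1.47. They gave 251 higher and 2049 lower probes in place of 667 and 958, with a median log2 change of -1.64 over all compared probes. Setting values at 0 to the array's smallest value above 0 moved AT3G25410 to 3.13. Leaving out 1 array gave -3.20 to -2.47 for AT2G32040, 2.67 to 2.93 for AT3G25410, -6.18 to -5.35 for their ratio, 622 to 674 higher probes and 873 to 969 lower probes. With the replicate number as a block the changes were the same by construction (SE 0.52 and 0.13), with 654 higher and 938 lower probes; averaging consecutive replicates gave the same changes with SE 0.67 and 0.27, and 545 higher and 730 lower probes. Across groups each of the 12 arrays had its highest correlation with its own number. The family probe with 3 genes lost its call under the block (log2 change -0.92), cyclic loess (-0.78) and the floor (-2.19, adjusted p = 0.272), and without psah2 replicate 2, psah2 replicate 4 or WT replicate 5 (adjusted p = 0.0577, 0.0559 and 0.0509). The brighter family probe with 2 genes turned to -1.01 as deposited, where the median of all compared probes was -1.64. The dimmer one passed there at -2.28 (limma, adjusted p = 9.58e-05). AT5G17630 had a log2 change of 1.70 with at least 2 values in each group (adjusted p = 0.0223) and also with consecutive replicates averaged (adjusted p = 0.0259), both resting on the 2 psah2 arrays above 0. With the values at 0 counted, the deposited mean went the other way, the WT mean being 4.36 times the psah2 mean. No gene of the folate metabolism and plastid import lists had a 1-gene probe, so no alternative gave those lists a value. Values near 0 limit the size given for AT2G32040 in psah2.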
